A study of Mus musculus with 4 samples.

Results

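The guanylate-binding protein (Gbp) genes are a mouse gene family, and 10 of them, Gbp2 to Gbp11, were followed here by their symbols. Of these, 9 were each read by 1 probeset (the set of array probes that reads a transcript) annotated to that gene alone, out of 22180 genes measured that way. Gbp2 had no such probeset and was read only by a probeset that also names Gbp2b, a related gene outside the 10. The family was chosen by the measured difference of its genes between Tg and WT islets, which was already known, so that difference is described below, and the calls that the fit across all genes gave for it are printed once without being read as a test. No gene was left out for a low signal.

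RNA came from islets of the pancreas of C57BL/6 animals between 5 and 6 months of age, with 2 arrays from WT littermates and 2 from 41 Tg mice, which carry a transgene for GPR41, a receptor for short-chain fatty acids encoded by Ffar3. The labels name no other allele or treatment, and both kinds of islets were incubated in RPMI medium before RNA was purified. The promoter of the transgene, the cells that express it, the number of lines and whether an array held islets of 1 mouse or of several are not given in the sources used here. Per the titles these are biological replicates, and p-values measure only the spread between these arrays.

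Guanylate-binding proteins are large GTPases of the dynamin superfamily that cells make in quantity when exposed to interferon, above all interferon gamma. They gather on vacuoles that hold parasites or bacteria and on bacteria in the cytosol, help to break these open, and so expose microbial products to inflammasomes, the complexes that activate inflammatory caspases. Most knowledge of them comes from macrophages and fibroblasts. Endocrine islet cells also carry interferon receptors and respond to interferon with many of the same genes.

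The mouse Gbp genes lie in 2 rows. In the GRCm38.p6 gene table, used for gene names and gene order, Gbp5, Gbp7, Gbp3, Gbp2b and Gbp2 follow each other on chromosome 3, and Gbp8, Gbp9, Gbp4, Gbp10, Gbp6 and Gbp11 on chromosome 5. The table lists Gbp11 as a transcribed pseudogene and the other named genes as protein coding. In Tg islets 5 of the 6 genes of the chromosome 5 row were higher than in WT islets by 1.84 to 4.09 log2 units, and Gbp6 in the same row was not. In the chromosome 3 row Gbp5, Gbp7 and Gbp3 differed by 0.22 or less, and Gbp2b, which is not among the 10, was lower by 0.50 in Tg islets.

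**Figure D1:**
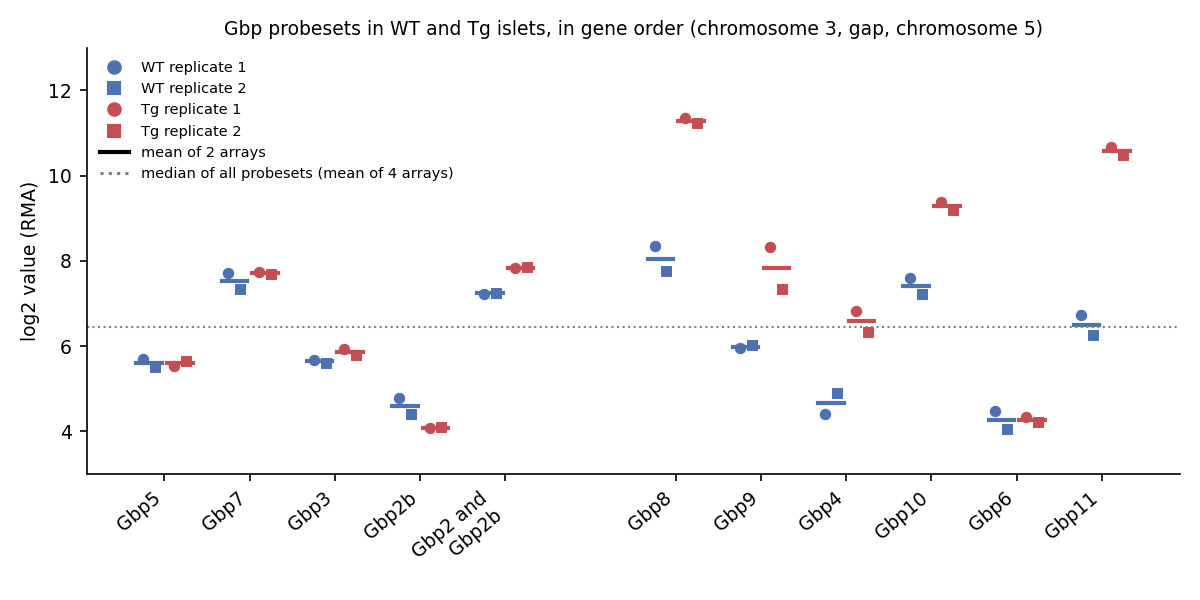
The log2 value (y axis) of each Gbp probeset (x axis, in gene order, chromosome 3 first) on the 2 WT arrays (blue) and the 2 Tg arrays (red), with the mean of each group as a short line and the median of all probesets as a dotted line. Gbp8, Gbp9, Gbp4, Gbp10 and Gbp11 have both Tg arrays above both WT arrays by more than 1 log2 unit, while Gbp5, Gbp7 and Gbp6 overlap.

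The median log2 value of an array lay between 6.43 and 6.47, and the first quartile between 4.93 and 4.98. Endocrine markers were bright in both groups, with a mean over 15 measured genes of 11.07 to 11.30 on the 4 arrays, and all 15 were higher on WT replicate 1 than on WT replicate 2. Acinar markers, of the enzyme-secreting cells around islets, were also bright. Their mean over 8 genes was 10.58 on WT replicate 1 and 11.68 on WT replicate 2, with all 8 lower on replicate 1, and 11.25 and 10.95 on the Tg arrays. Ffar3 read 7.09 and 6.47 in WT islets and 11.02 and 10.98 in Tg islets. Its probeset cannot separate transgene from endogenous transcripts without the sequence of the transgene.

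Gbp11, the pseudogene at the end of the chromosome 5 row, had the largest difference in the family. It read 6.74 and 6.26 in WT islets and 10.68 and 10.49 in Tg islets on the log2 scale. The groups lay 3.76 apart at their nearest arrays, against a gap of 0.47 within WT and 0.18 within Tg. The difference of 4.09 (SE 0.18, from the limma fit across all genes, as for each SE below) corresponds to a 17.0-fold higher signal. By size of increase Gbp11 ranked 7 among the 22180 genes, 2 places below Ffar3, which ranked 5.

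Gbp8, at the other end of the row, was the next largest. Its values were 8.35 and 7.76 in WT islets and 11.34 and 11.23 in Tg islets. Both Tg arrays stood above both WT arrays by at least 2.88, and the Tg arrays differed by 0.11 between themselves. The difference was 3.23 (SE 0.20), a 9.39-fold higher signal, and it ranked 15 by size of increase. Gbp8 already lay above the array median in WT islets.

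The 3 other genes that differed did so by nearly the same amount. Gbp10 was at 7.61 and 7.22 in WT and at 9.37 and 9.18 in Tg islets, a difference of 1.86 (SE 0.16) or 3.64-fold. Gbp4, whose product has been linked to control of the interferon regulatory factor Irf7, was at 4.41 and 4.91 in WT and at 6.82 and 6.34 in Tg islets. Its WT values lay below the first quartile of their arrays, where differences tend to be compressed, so its difference of 1.92 (SE 0.23, 3.79-fold) is uncertain in size.

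Gbp9, one of the proteins seen on vacuoles of Toxoplasma, was at 5.95 and 6.04 in WT islets and at 8.32 and 7.34 in Tg islets. Its groups did not overlap, but its Tg arrays lay 0.98 apart, the widest gap between arrays of a group in the family. Its difference was 1.84 (SE 0.31), or 3.58-fold, and without Tg replicate 1 it was 1.35. Gbp10, Gbp4 and Gbp9 ranked 54, 52 and 58 by size of increase, and their differences lay closer to each other than any of their standard errors.

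Gbp6 lies between Gbp10 and Gbp11 and did not follow them. It was at 4.48 and 4.05 in WT and at 4.34 and 4.21 in Tg islets, with overlapping groups and a difference of 0.01 (SE 0.16). All 4 values lay below the first quartile of their arrays, so at this signal a change of the transcript may not be visible. Gbp6 and Gbp10 are closely related genes, as are others of this row, and probes designed for a gene can bind transcripts of a close relative. Whether this raised or evened out any of the differences was not tested, and the assignment of signal to single genes of the row is uncertain to that extent.

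On chromosome 3, Gbp5 and Gbp7 did not separate the groups. Gbp5, which promotes assembly of the Nlrp3 inflammasome, was at 5.70 and 5.51 in WT and at 5.55 and 5.66 in Tg islets, a difference of -0.0010 (SE 0.12). Gbp7, which acts in the delivery of antimicrobial cargo to vacuoles, was at 7.72 and 7.34 in WT and at 7.74 and 7.70 in Tg islets, a difference of 0.19 (SE 0.15). Gbp7 lay above the array median on all 4 arrays, and why its difference was small was not tested. Gbp3 was at 5.69 and 5.61 in WT and at 5.94 and 5.79 in Tg islets. The Tg arrays of Gbp3 were both higher, by 0.10 at the nearest pair, and the difference was 0.22 (SE 0.11).

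The probeset shared by Gbp2 and Gbp2b was at 7.23 and 7.26 in WT islets and at 7.83 and 7.85 in Tg islets. Its arrays agreed closely within each group, and its difference was 0.60 (SE 0.10, in the fit of all probesets), or 1.51-fold. Gbp2b also has a probeset of its own, which was at 4.77 and 4.40 in WT and at 4.08 and 4.10 in Tg islets, a difference of -0.50. The signal of the shared probeset cannot be divided between the genes, although the Gbp2b probeset itself was lower, not higher, in Tg islets and lay below the first quartile of all 4 arrays. Gbp2 encodes a lipid-anchored protein of the family that coats vacuoles and bacteria.

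In the fit across all genes, 4 of the 9 Gbp genes (Gbp4, Gbp8, Gbp10 and Gbp11) were higher in Tg islets at an adjusted p under 0.05 (limma with Benjamini-Hochberg adjustment), where 0.672% of all genes were. Both Tg arrays lay above both WT arrays in 6 of the 9, against 18.6% of all genes. They lay below both WT arrays in 0 of the 9, against 23.7% of all genes, and 0 of the 9 were lower at an adjusted p under 0.05, where 0.225% of all genes were. Since the genes were chosen for this contrast, these counts describe the family and support nothing further. The median difference of the 9 genes was 1.84, beside -0.02 for all genes tested, and without Tg replicate 1 it was 1.35. The count of 4 rests on limma's shared variance, since it was 0 without moderation, where 4 of the Gbp genes had an unadjusted p under 0.05. It was 1 (Gbp11) without Tg replicate 1, 3 (Gbp8, Gbp9 and Gbp11) without Tg replicate 2 and 3 (Gbp8, Gbp10 and Gbp11) without WT replicate 1.

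The 10 nearest measured genes on each side of the chromosome 5 row had differences from -0.37 to 0.67, with a median of 0.02. By limma 0 of the 20 passed the test and 1 had an unadjusted p under 0.05, where 0.672% of all genes were higher and 0.225% lower past the test and 11.8% had such a p, so a count of 0 among 20 genes is near that share. The nearest measured gene beyond Gbp8 is Abcg3, a transporter gene, which was at 4.75 and 4.50 in WT and at 4.80 and 5.05 in Tg islets (difference 0.30, SE 0.14). The nearest measured beyond Gbp11 is Lrrc8b, a subunit of volume-regulated anion channels, at 9.47 and 10.03 in WT and at 10.21 and 9.96 in Tg islets (difference 0.33, SE 0.21). Its neighbour Lrrc8c, of the same channel family, had the largest difference among the 20 genes at 0.67 (SE 0.22, limma adjusted p = 0.337). Around the chromosome 3 row, 0 of 20 flanking genes passed, with a median of -0.07 and 4 at an unadjusted p under 0.05.

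**Figure D2:**
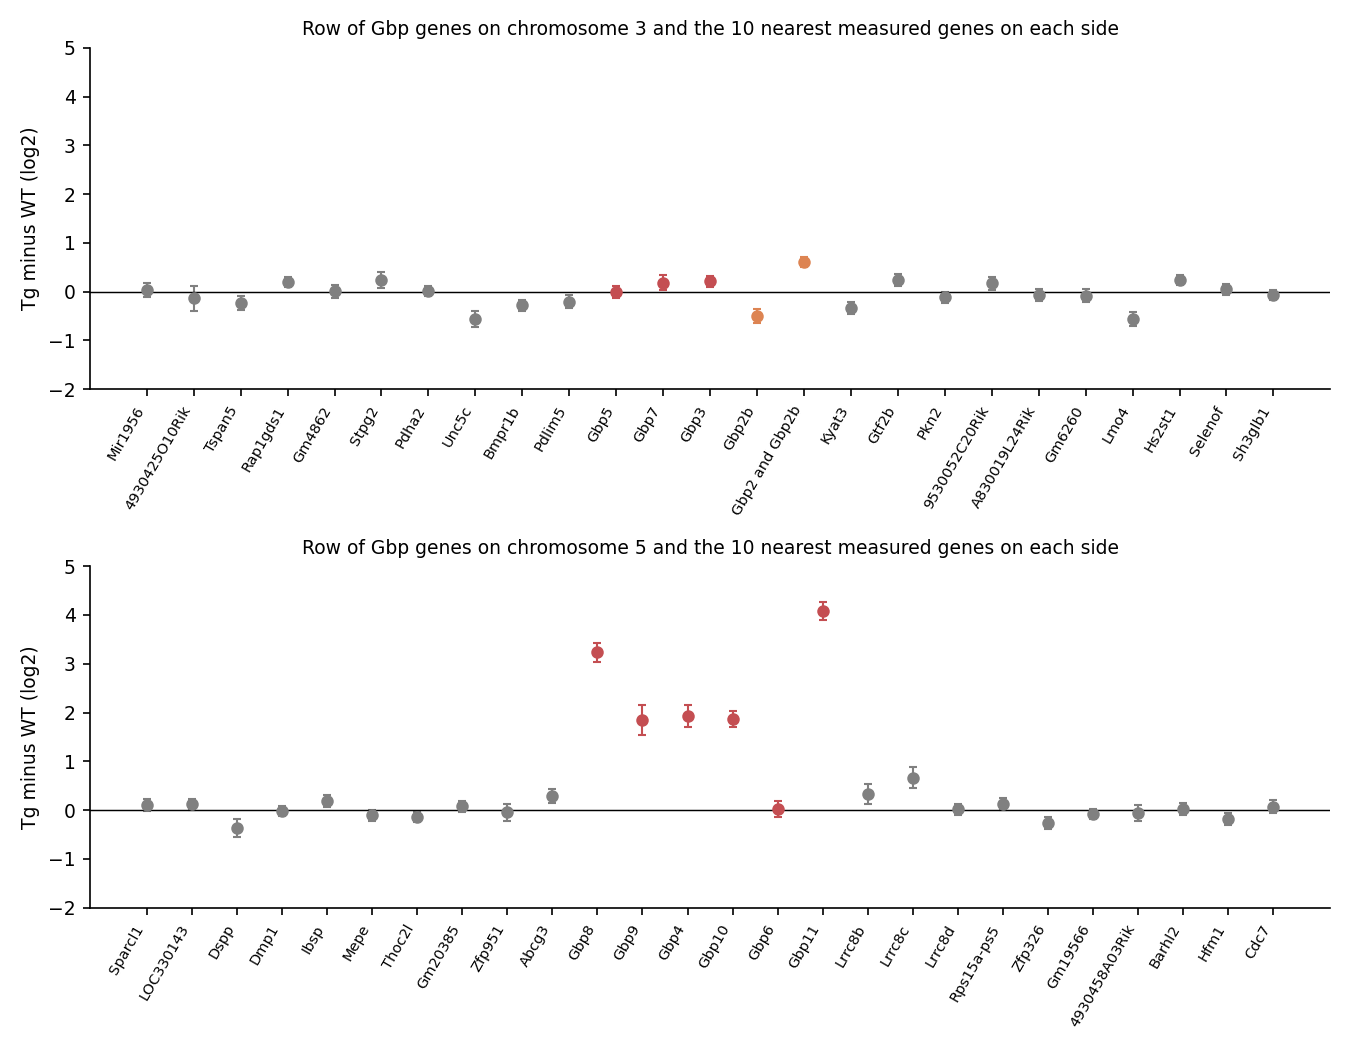
The difference Tg minus WT on the log2 scale (y axis) with its standard error from limma (bars) for each measured gene (x axis, in gene order, not to scale) of the chromosome 3 row (top) and the chromosome 5 row (bottom). Gbp genes with a probeset of their own are red, Gbp2b and the probeset shared with Gbp2 are orange, and the 10 nearest measured genes on each side are grey. The 5 raised Gbp genes lie between 1.84 and 4.09, and the grey genes between -0.56 and 0.67.

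Promoter windows were matched for 4 of the 10 genes, Gbp5, Gbp7, Gbp3 and Gbp2, in RefSeq sequences of GRCm38.p6 that run from 250 bases before to 50 bases after a start site. No window was matched for Gbp4, Gbp6, Gbp8, Gbp9, Gbp10 and Gbp11. The 4 matched genes have 5 windows, because Gbp3 has a second listed start site. In 4 of these windows the core of the interferon-stimulated response element (GAAA, any 2 bases, GAAA) lies on the strand opposite to the gene. The second window of Gbp3 lacks the core. That core, searched on both strands, occurs in 3.44% of the 32851 windows of the table. The gamma-activated site TTCNNNGAA, the palindrome bound by STAT dimers, occurs in 8.30% of them. Gbp5 and Gbp7 each hold 2, Gbp3 and Gbp2 none. The 180 bases before each start site are printed 5′ to 3′ on the plus strand of the chromosome, with matches of either motif in capitals.
Gbp5, chr3:142496754-142496933: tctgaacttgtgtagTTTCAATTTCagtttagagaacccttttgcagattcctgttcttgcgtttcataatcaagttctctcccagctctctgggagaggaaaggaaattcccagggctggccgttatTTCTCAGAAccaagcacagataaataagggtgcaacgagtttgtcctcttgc
Gbp7, chr3:142530156-142530335: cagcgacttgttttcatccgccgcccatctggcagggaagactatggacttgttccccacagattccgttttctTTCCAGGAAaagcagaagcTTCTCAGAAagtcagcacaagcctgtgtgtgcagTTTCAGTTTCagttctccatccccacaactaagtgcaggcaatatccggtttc
Gbp3, chr3:142559864-142560043: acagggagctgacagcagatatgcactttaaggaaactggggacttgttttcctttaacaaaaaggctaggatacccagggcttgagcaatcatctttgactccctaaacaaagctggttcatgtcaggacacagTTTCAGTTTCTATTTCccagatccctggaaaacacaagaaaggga
Gbp2, chr3:142620483-142620662: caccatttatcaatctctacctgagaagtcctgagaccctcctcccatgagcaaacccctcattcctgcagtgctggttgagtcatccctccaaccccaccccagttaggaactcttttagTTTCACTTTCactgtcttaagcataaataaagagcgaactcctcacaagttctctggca

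The first base of the response element core lies 165 bases before the start site in Gbp5, 53 in Gbp7, 45 in Gbp3 and 59 in Gbp2. Gbp3 holds a further core that begins 39 bases before the start and overlaps the first. A second listed start site of Gbp3 has neither motif in its window. In Gbp7 the gamma-activated sites begin 106 and 87 bases before the start, and in Gbp5 245 and 52 bases before it, the former outside the printed stretch. TATAAA was found only in the first window of Gbp3, on the opposite strand, and occurs in 13.6% of all windows. These are matches of letters and not measured binding.

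Other interferon-inducible GTPases were compared next, since the immunity-related GTPases act with Gbp proteins on the same vacuoles. Of 21 listed genes 15 were measured, Gbp2b among them, while Ifi47, Tgtp1, Tgtp2 and Gvin1 were not. Irgq (0.06) and Irgc1 (-0.11) were counted as members of the immunity-related GTPase family, whether or not interferon induces them. Of the 15 genes, 1 rose and 0 fell in the test over all genes, beside 0.672% of all genes that rose. The median difference was 0.21. Iigp1, the immunity-related GTPase that coats Toxoplasma vacuoles, rose from 5.55 and 5.82 in WT islets to 6.78 and 7.18 in Tg islets (difference 1.29, SE 0.18, limma adjusted p = 0.046). With each array left out in turn its difference was 1.09 to 1.50 and did not pass. In all, 13 of the 15 genes had a difference above 0, and both Tg arrays lay above both WT arrays in 7, against 18.6% of all genes. The largest difference was that of 9930111J21Rik2, which was at 5.72 and 6.16 in WT and at 7.91 and 6.96 in Tg islets (1.49, SE 0.32, limma adjusted p = 0.148). Irgm1 (0.04), Irgm2 (0.09) and Igtp (0.21), regulators of this GTPase family, had overlapping groups, as did the antiviral GTPase gene Mx1 (0.10).

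Upstream of Gbp transcription stand interferons, their receptors, JAK kinases, STAT proteins and interferon regulatory factors. The list compared here holds such genes and also Socs1, Socs2, Socs3, Cish, Usp18, Batf2, Nlrc5 and Ciita, which belong to none of these classes. Of its 36 measured genes, 3 rose and 0 fell, beside 0.672% and 0.225% of all genes, with a median difference of 0.09. Both Tg arrays lay above both WT arrays in 17 of the 36 and below them in 7, against 18.6% and 23.7% of all genes. The genes that rose were Stat4 (1.51, SE 0.18, limma adjusted p = 0.033), a STAT protein of lymphocytes, and the cytokine signalling inhibitors Socs2 (1.10, SE 0.13, adjusted p = 0.033) and Cish (1.08, SE 0.14, adjusted p = 0.040), which are targets of Stat5. Irf8, a factor of myeloid and B cells, was at 1.06 (SE 0.18, limma adjusted p = 0.081). Irf1 was at -0.27 (SE 0.12), with both Tg arrays below both WT arrays. Ifng, the gene of interferon gamma, was at -0.20 (SE 0.16) with overlapping groups. It lay below the first quartile on all arrays but WT replicate 1, so a change may not be visible. With each array left out the count was 0 or 1, and without WT replicate 2 it was Socs2.

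Among 34 other interferon-stimulated genes, 3 rose and 0 fell, beside 0.672% and 0.225% of all genes, with a median difference of 0.26. A difference above 0 was found in 30 of them, and both Tg arrays lay above both WT arrays in 24, against 18.6% of all genes. An unadjusted p under 0.05 was found in 15 of the 34, against 11.8% of all genes. The genes that rose were the chemokine genes Cxcl11 (1.33, SE 0.16, limma adjusted p = 0.034), Cxcl10 (1.02, SE 0.13, adjusted p = 0.039) and Cxcl9 (0.94, SE 0.12, adjusted p = 0.043), all classical targets of interferon gamma. Nos2, also a target of interferon gamma, was at 0.02 with overlapping groups. Ifit3, a target of type I interferon, was at 0.49 (SE 0.10, limma adjusted p = 0.130). With each array left out the count was 0 or 1, and without WT replicate 1 it was Cxcl10.

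Of 14 genes of the inflammasomes that Gbp proteins act on, 3 rose and 0 fell, beside 0.672% and 0.225% of all genes, with a median difference of 0.14. Casp4, the mouse caspase that senses bacterial lipopolysaccharide exposed by Gbp proteins, rose from 6.32 and 6.79 to 8.0 and 7.77 (difference 1.33, SE 0.18, limma adjusted p = 0.048). Casp1, which matures interleukin 1 beta, was at 4.75 and 4.71 in WT and at 6.41 and 5.86 in Tg islets (1.40, SE 0.19, adjusted p = 0.046). Its substrate gene Il1b was at 4.78 and 4.84 in WT and at 5.81 and 5.70 in Tg islets (0.94, SE 0.11, adjusted p = 0.033). The WT values of Casp1 and Il1b lay below the first quartile of their arrays, so the size of both differences is uncertain. Il18 was at -0.49 (SE 0.12, limma adjusted p = 0.202). The count was 1 (Casp4) without WT replicate 2, 1 (Casp1) without Tg replicate 2 and 0 without either of the other arrays.

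**Figure D3:**
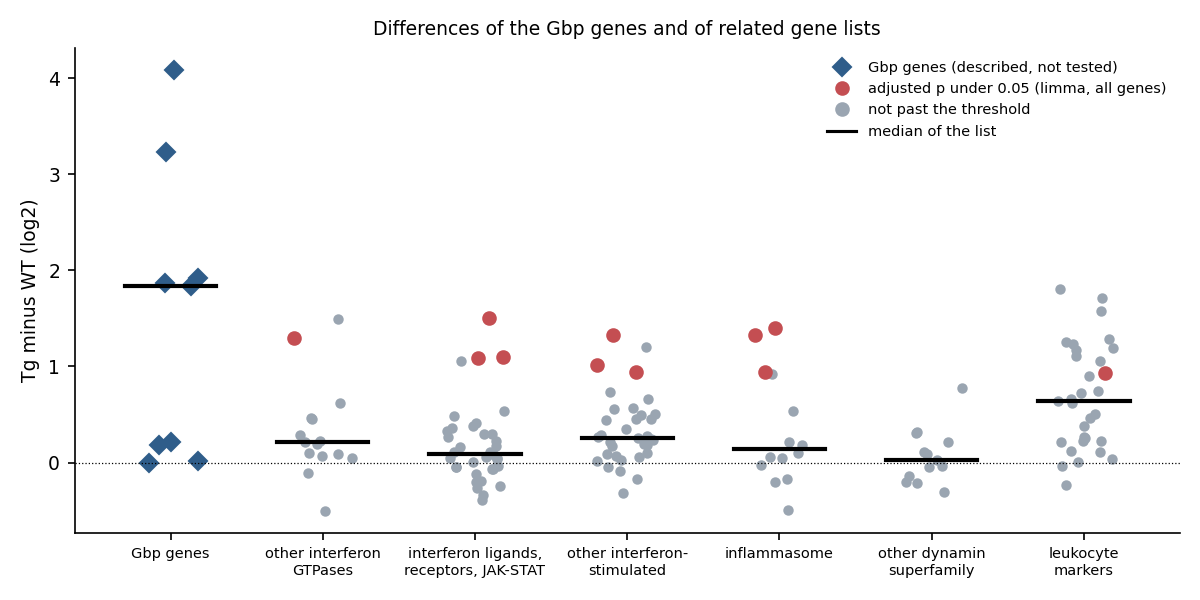
The difference Tg minus WT on the log2 scale (y axis) for the 9 Gbp genes (blue diamonds, described without a test) and for each measured gene of 6 lists (x axis), with genes past an adjusted p under 0.05 over all genes in red and the median of each list as a black line. Gbp8 and Gbp11 lie above every gene of the 6 lists, whose highest value is 1.81.

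Leukocytes express many of these genes, and their markers moved with the groups. Of 31 measured leukocyte markers 29 had a difference above 0, with a median of 0.64, and both Tg arrays lay above both WT arrays in 24, against 18.6% of all genes. Averaged over the markers, WT islets read 6.49 and 6.40 and Tg islets 7.27 and 6.98. An unadjusted p under 0.05 by limma was found in 20 of the 31, against 11.8% of all genes. After adjustment 1 was higher and 0 lower, beside 0.672% and 0.225% of all genes. Only Coro1a passed the test (0.94, SE 0.10, limma adjusted p = 0.031), and with each array left out in turn it did not. Without WT replicate 1 the marker called was Lyz2, and without Tg replicate 2 it was 4 markers (Ptprc, Cd79b, Ms4a1 and Laptm5). No marker is at 0 on a log2 array scale. The neutrophil gene S100a8 and the natural killer cell genes Ncr1 and Klrb1c did not rise, with differences of -0.04, 0.0069 and 0.03. S100a8 was at 3.77 or less and Ncr1 at 4.83 or less on all 4 arrays, below the first quartile. Klrb1c lay below it on all arrays but Tg replicate 2, so in these genes a change may not be visible. Nkg7, also of natural killer cells, was at 0.12, with both Tg arrays above both WT arrays. The largest difference among the markers was 1.81 in the B cell gene Cd79b, below the 3.23 of Gbp8 and the 4.09 of Gbp11 and close to those of Gbp4, Gbp9 and Gbp10. Endothelial markers, and less so mesenchymal markers, also moved with the groups. All 12 endothelial markers had a difference above 0 (median 0.40), with both Tg arrays above both WT arrays in 11 and 7 at an unadjusted p under 0.05. Of 10 mesenchymal markers 9 had a difference above 0 (median 0.17). Both Tg arrays lay above both WT arrays in 5 of these 10 and below them in 1, and 2 had an unadjusted p under 0.05. The proteoglycan gene Dcn was at 1.79 (SE 0.26, limma adjusted p = 0.054). In both of these lists 0 genes passed the test over all genes, though Dcn did without Tg replicate 2, with arrays centred on their median, with the variance trend and robust prior, and among genes above the median level. The mean over the endothelial markers was 8.31 and 8.10 in WT and 8.78 and 8.50 in Tg islets, and that over the mesenchymal markers 6.62 and 6.75 in WT and 7.06 and 6.97 in Tg islets. Of 15 endocrine markers 10 had a difference below 0 and 5 above it (median -0.11). Both Tg arrays lay below both WT arrays in 5 of the 15, against 23.7% of all genes, and above them in 0, against 18.6%. The part of these cell types in the Gbp differences was not tested, and in whole islets more cells of a type and more RNA per cell cannot be told apart.

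Differences between the arrays of a group do not depend on the contrast between groups, and they divided the raised genes. In Tg islets, replicate 1 exceeded replicate 2 by 0.98 in Gbp9 and by 0.48 in Gbp4. Gbp10 (0.19), Gbp11 (0.18) and Gbp8 (0.11) were nearly level between these arrays. The leukocyte markers were themselves divided, with 20 of 31 higher on Tg replicate 1 and a median of 0.20. The largest gaps were 1.39 in the B cell gene Ms4a1, 1.17 in Ptprc and 1.14 in Cd79b. Klrb1c (-0.65), Mrc1 (-0.31), Tyrobp (-0.31), Ncr1 (-0.30), Fcgr1 (-0.18) and Coro1a (-0.08) were among those lower on Tg replicate 1. Myeloid genes went both ways, with Adgre1 (0.38), Lyz2 (0.33) and Csf1r (0.26) higher there. In WT islets the order was another. Gbp8 (0.59), Gbp11 (0.47) and Gbp10 (0.39) were higher on replicate 1. Gbp9 (-0.09) was nearly level, and Gbp4 (-0.50) was lower there, with both of its WT values below the first quartile. The median over the leukocyte markers was 0.11. All 8 acinar markers were lower on WT replicate 1, while all 15 endocrine markers and 11 of 12 endothelial markers were higher there. The part of these cell types in the gaps was not tested. With 2 arrays in a group these are descriptions and have no test.

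**Figure D4:**
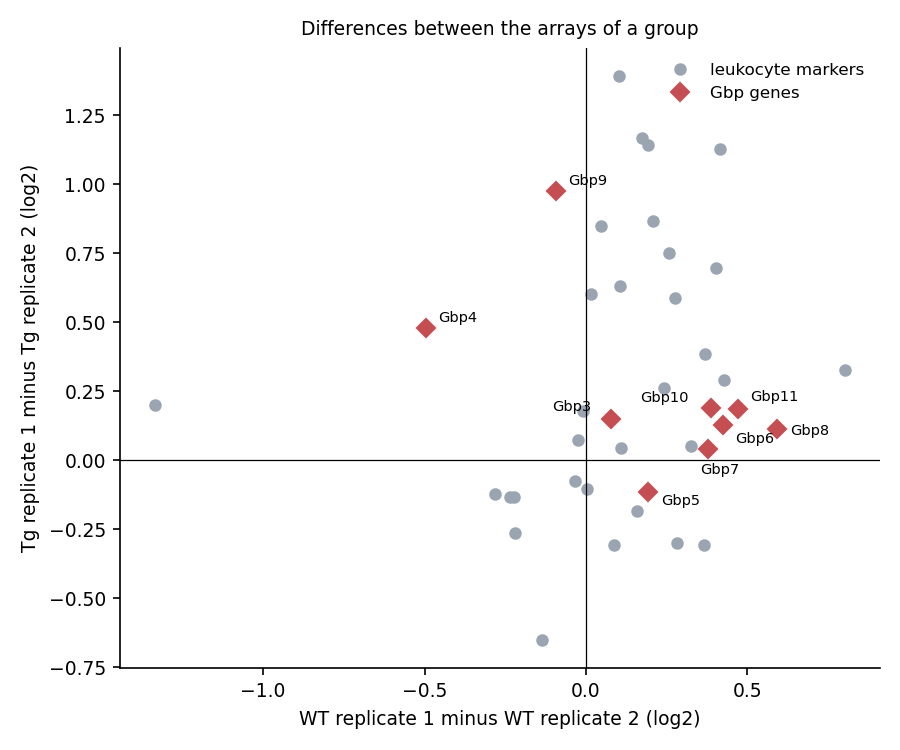
The log2 difference replicate 1 minus replicate 2 within WT (x axis) and within Tg (y axis) for the 9 Gbp genes (red diamonds) and 31 leukocyte markers (grey). Gbp9 and Gbp4 lie apart from the other Gbp genes, at 0.98 and 0.48 on the y axis and below 0 on the x axis.

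The likeness of the members to each other was measured over the 4 arrays as the root mean square distance between log2 values centred on the mean of each gene. Gbp4 and Gbp9 were the nearest pair among the 5 raised genes, at 0.23, and each lay at 0.33 from Gbp10. Gbp8 and Gbp11 lay at 0.43 from each other. Gbp6 and Gbp7, of different rows, were the nearest pair in the family at 0.09. The 5 genes nearest to the mean profile of the 9 members were Ccr7 (distance 0.07), a chemokine receptor of lymphocytes and dendritic cells, Stat4 (0.08), the sulfotransferase gene Chst9 (0.08), Cpne4 (0.08), which encodes a calcium-dependent membrane-binding protein, and Acvr1c (0.08), which encodes the activin receptor ALK7. Their differences ran from 1.42 in Cpne4 to 1.61 in Chst9. Because the mean profile averages the 5 raised genes with the level ones, these differences fall between 0.22 (Gbp3) and 1.84 (Gbp9). No member lies in that range. Over 4 arrays in 2 groups, such likeness mostly reflects a similar difference between the groups.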

How the data were processed

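Labelled RNA (250 ng of total RNA per array, per the labels' protocols) was hybridised to 4 Affymetrix Mouse Gene 2.0 ST arrays. Values were deposited by the authors as log2 numbers (2.87 to 13.9 over the table). Partek and RMA are listed in the submitters' processing notes, and RMA corrects background, normalises arrays and summarises probes. Its genome build was not given in the sources used here. Groups and replicate numbers came from the titles.

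The table held 27037 probesets, of which the platform annotation named 23521 with 1 gene, 1814 with several and 1702 with none. The brightest single-gene probeset stood for a gene, which gave 22180 genes, with no filter on low values. Differences (Tg minus WT) were fitted with limma 3.58.1 (lmFit, eBayes) in R 4.3.3 and adjusted by Benjamini-Hochberg over all genes, with 2 residual and 3.76 prior degrees of freedom. A 2 against 2 exact permutation test cannot go below 0.333, so p-values rest on limma's model. The number of arrays limits the precision.

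The Gbp genes and all gene lists were chosen with earlier results of these data known. The text names all members, genes of the short lists past the threshold, up to 4 genes with the smallest p of the other lists, and examples chosen after their values were seen (Irgm1, Irgm2, Igtp, Mx1, Abcg3, Lrrc8b, Lrrc8c, Il18, Irf1, Ifng, Nos2, S100a8, Ncr1, Klrb1c, Nkg7, Cd79b, Ms4a1, Ptprc, Tyrobp, Fcgr1, Adgre1, Lyz2, Csf1r, Mrc1, 9930111J21Rik2). Socs1, Socs3, Usp18, Batf2, Nlrc5, Ciita, Irgq, Irgc1, Ifi47, Tgtp1, Tgtp2 and Gvin1 are named to describe what the lists hold. Probeset levels were set against the median and quartiles of an array only, since probes differ in affinity. A comparison of the proteins was planned and not run.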

Additional observations from a re-analysis of the deposited data

Results flagged for a closer look

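The probeset that names both Gbp2 and Gbp2b lies outside the comparison of genes with a probeset of their own, and it was brought up because both of its Tg arrays stood above both WT arrays. Its difference was 0.60 (WT mean 7.24, Tg mean 7.84). Groups of 2 arrays are too small for a check of single arrays that stand apart.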

How the results depend on the processing

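All alternatives were planned. Over all genes, 199 passed the threshold. A trended variance with a robust prior gave 347, the replicate block gave 24, and leaving out single arrays gave 38 to 135, on the assumption that a lone array varies as the remaining ones do. Without moderation 0 passed, and 1928 genes had an unadjusted p under 0.05 (2627 with moderation). The count of 4 Gbp genes was 0 without moderation, 2 (Gbp8 and Gbp11) with the replicate block and 1 to 4 with each array left out. The difference of replicates 1 and 2 in WT and that in Tg had a correlation of -0.063 over all genes, so the shared numbers are not taken as pairs. The median Gbp difference of 1.84 was 1.35 to 1.96 with each array left out, the lowest without Tg replicate 1. Gbp5 lay between -0.10 and 0.10, Gbp6 between -0.20 and 0.23 and Gbp7 between -0.0027 and 0.38 with each array left out, so these have no settled direction.

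Without moderation and with the replicate block the counts were 0 in the lists of other interferon GTPases, interferon signalling, other interferon-stimulated genes, inflammasome genes and leukocyte markers. With each array left out they were 0 to 0 of other interferon GTPases, 0 to 1 in the lists of signalling, interferon-stimulated and inflammasome genes, and 0 to 4 of leukocyte markers. Iigp1 also missed the threshold after a further quantile normalization (count 0), and it was not among the genes above the median level (count 0), where the inflammasome count was 1. Leukocyte markers past the threshold numbered 2 after quantile normalization, 3 with the trend and robust prior and 3 among genes above the median level. The cause was not tested. Signal near background limits Gbp4, Casp1 and Il1b in WT islets and Gbp6 and Gbp2b in both groups.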

Other observations

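Genes whose products handle Gbp proteins or resemble them without answering to interferon were also measured. Over all genes, 0.672% were higher and 0.225% lower past the limma test, and 11.8% had an unadjusted p under 0.05. Counts of 0 past the test in lists this small are near those shares. Of 15 genes of the ubiquitin-like conjugation machinery that directs Gbp proteins to vacuoles, 0 passed the limma test and 0 had an unadjusted p under 0.05, with a median difference of 0.05 and a range from -0.14 to 0.19. Tax1bp1 (0.19), Sqstm1 (0.16), Atg3 (-0.14) and Rabgap1l (0.16) had the smallest p. Of 9 prenylation enzymes, which attach the lipid anchor of some Gbp proteins, 0 passed and 1 had an unadjusted p under 0.05, with a median of -0.04. That gene was Fnta (-0.29, SE 0.12), a subunit shared by farnesyl and geranylgeranyl transferases, and the others with the smallest p were Rabggtb (0.85, SE 0.39), Pde6d (0.17) and Pggt1b (-0.06).

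Of 13 GTPases of the dynamin superfamily that interferon does not induce, 0 passed, with a median of 0.03. An unadjusted p under 0.05 was found in 2 of them, against 11.8% of all genes. Dnm3, a dynamin of neurons and testis, was at 7.92 and 7.73 in WT and at 8.74 and 8.45 in Tg islets (difference 0.77, SE 0.14, limma adjusted p = 0.101). Ehd2 (0.31), Mfn1 (-0.21) and Opa1 (-0.20) followed by p. By an ordinary linear model without moderation, 0 genes of these lists passed after adjustment.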
